A study of Homo sapiens with 6 samples.

Results

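The splicing factors described here are 60 human genes, picked by name for the roles of their proteins in pre-mRNA splicing, of 35410 genes counted in 6 MACE-Seq libraries. Their roles divide them into 12 SR and Tra2 proteins, 17 hnRNP and PTB proteins, 4 proteins of the U1 snRNP and the 5′ splice site, 7 proteins of the Sm ring, 10 proteins of the U2 snRNP and the 3′ splice site, 3 proteins of the tri-snRNP and the Prp19 complex and 7 regulators known for cell-type specific exon choice. The libraries were made from SEM, an established leukemia cell line of proB phenotype with the KMT2A::AFF1 fusion. Both groups carried a doxycycline-inducible vector and were given 1 µg/mL doxycycline for 48 h before RNA extraction. The vector was empty in the 3 biological replicates of SEM::mock and held the zinc finger transcription factor EGR3 in the 3 biological replicates of SEM::EGR3. Whether a line was a single clone is not given in the sources used here. The comparison asked which splicing factor transcripts differed when EGR3 was overexpressed.

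Splicing removes introns in steps. The U1 snRNP recognizes the 5′ splice site, SF1 and the U2AF dimer mark the branch point and the 3′ splice site, and the U2 snRNP then pairs with the branch point before the tri-snRNP of U4, U6 and U5 joins and the Prp19 complex helps to form the catalytic center. SR proteins mostly favor the use of nearby exons, hnRNP proteins often oppose it, and regulators such as MBNL, CELF, RBFOX and QKI set exon choice by cell type. MACE-Seq reads only the 3′ end of each polyadenylated RNA, and so it measured how much RNA of each splicing factor gene was present and not how any transcript was spliced.

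The induced gene separated the groups. The counts of EGR3 were 8, 10 and 6 in SEM::mock and 9768, 4952 and 5557 in SEM::EGR3 (log2 fold change 8.78, SE 0.11, edgeR adjusted p = 1.27e-26). Library totals were 5286115 to 6181388 counts in SEM::mock and 7293092 to 15106018 in SEM::EGR3, so that low counts are less precise in SEM::mock. The labelled proB identity was checked with 12 B-lineage markers. In each SEM::mock library 9 of the 12 were at 3 counts or fewer, with EBF1, MS4A1, BLNK and DNTT at 0, against 2 of the 12 in SEM::EGR3. The summed level of the 12 was 132 to 135 CPM (counts relative to the normalized library total) in SEM::mock and 663 to 697 CPM in SEM::EGR3. TCF3 alone was at 127 to 133 CPM in SEM::mock, nearly all of that sum, and at 170 to 178 CPM in SEM::EGR3. The summed level of 10 KMT2A fusion targets was 52.2 to 59.7 CPM in SEM::mock, where HOXA7 and LAMP5 were at 0, and 1037 to 1097 CPM in SEM::EGR3. Summed levels of 16 erythroid and megakaryocyte genes were 5041 to 5341 and 6218 to 6474 CPM, of 9 myeloid genes 171 to 187 and 186 to 191 CPM, of 9 T cell genes 86.7 to 99.3 and 132 to 144 CPM, and of 9 epithelial and fibroblast genes 878 to 918 and 494 to 527 CPM, each for SEM::mock and then SEM::EGR3. Most B-lineage markers were thus at or near 0 in all 3 SEM::mock libraries, no comparison could be made without these libraries, and EGR3 induction and this difference between the lines cannot be told apart for any gene below.

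Of the 60 splicing factor genes, all of which passed the filter on low counts, 19 were higher and 20 were lower in SEM::EGR3, and 21 were not called. Among all 15465 tested genes, 36.5% were higher and 32% were lower by the same rule, an adjusted p under 0.05 in edgeR's quasi-likelihood test over all tested genes. The counts by role below are to be read beside these shares. With scaling by library size only, the split of the splicing factor genes was 25 higher and 15 lower. The scaling factors left out there were 0.968 to 0.984 in SEM::mock and 1.02 to 1.03 in SEM::EGR3, which moves all genes upward. The shares of all tested genes under that scaling were not counted, so this split has no background beside it. The changes were small. Only MBNL1, which rose, and MBNL2, which fell, were called with a log2 fold change of 1 or more in size, which held for 25.2% of all tested genes. The median absolute log2 fold change was 0.20 over the splicing factors and 0.46 over all tested genes, and 49 of the 60 (81.7%) lay within 0.5 of zero against 52.5% of all tested genes. The signed median was 0.03 in both. Small changes were not particular to these 60 genes. Of the 103 further splicing genes tested, described below, 91 lay within 0.5 of zero, with a median absolute log2 fold change of 0.20. The libraries of the groups did not overlap for 40 of the 60 genes, 19 of them higher and 21 lower in SEM::EGR3, where 70.2% of all tested genes did not overlap. Together the 60 genes took 1.64% to 1.69% of the counts of a SEM::mock library and 1.66% to 1.72% of those of a SEM::EGR3 library. In such bulk RNA, fewer cells of a type and less RNA per cell cannot be told apart.

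**Figure D1:**
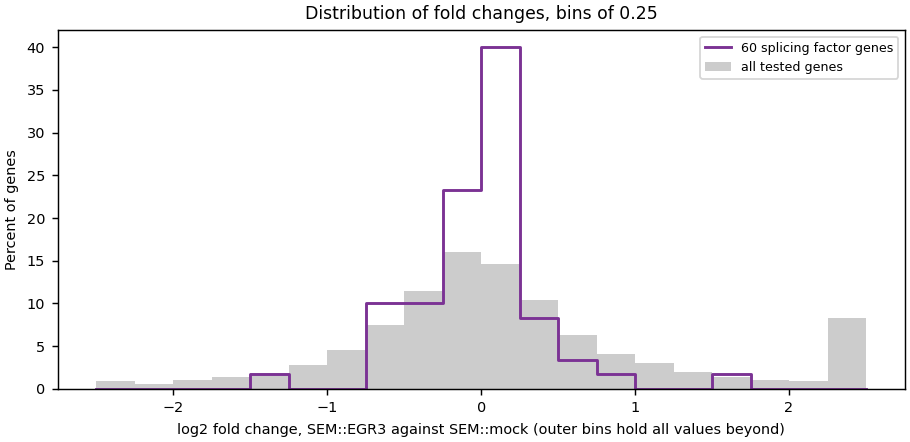
Percent of genes (vertical axis) in each bin of log2 fold change between SEM::EGR3 and SEM::mock (horizontal axis) for all 15465 tested genes (grey bars) and for the 60 splicing factor genes (line). The splicing factors gather near zero, with 49 of 60 within 0.5, and no member reaches the outer bins.

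**Figure D2:**
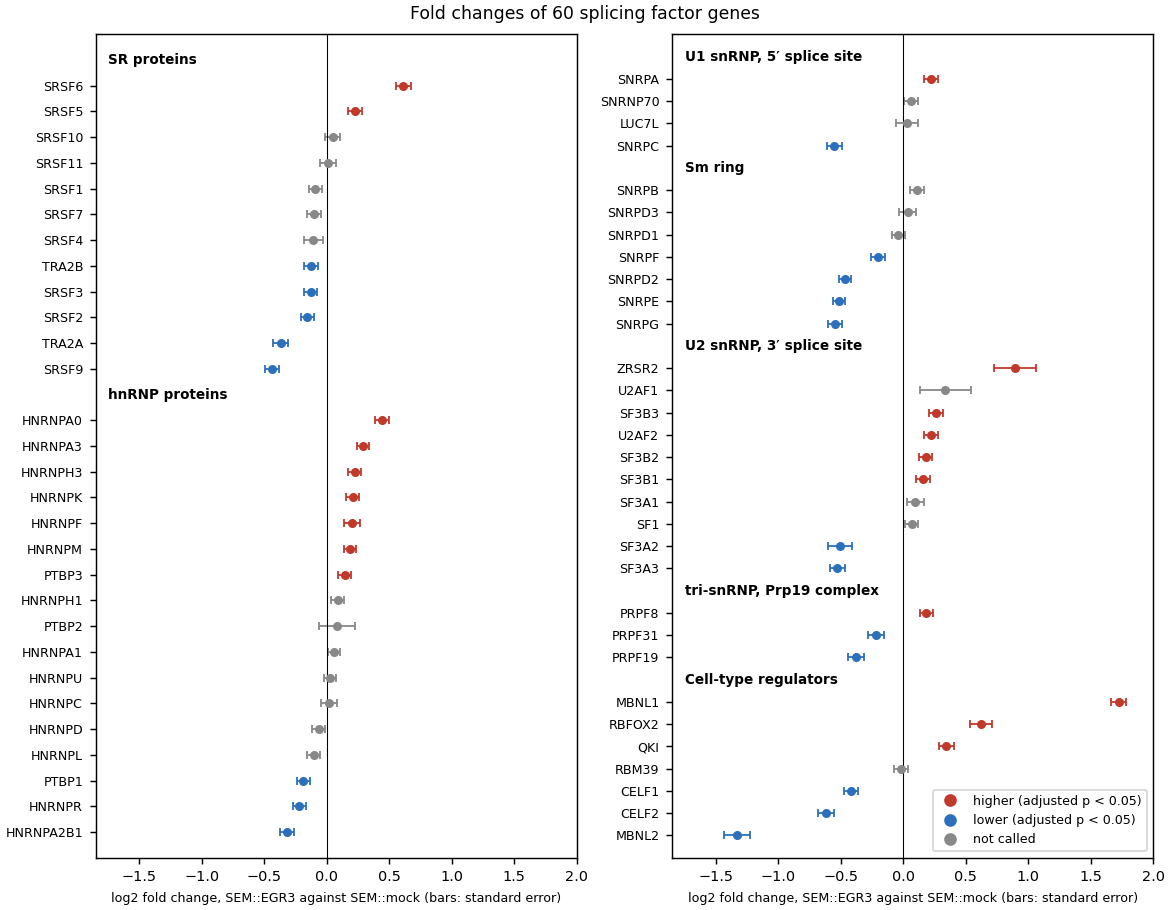
Log2 fold change of each of the 60 splicing factor genes (horizontal axis, bars are standard errors of the edgeR fit over 3 libraries a group), sorted within their roles. MBNL1 and MBNL2 stand at the ends with 1.72 and -1.33, and all other members lie between -0.62 and 0.90.

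The regulators of cell-type specific exon choice held the largest changes of the set, with 3 of 7 higher, 3 lower and RBM39 not called. MBNL1, a muscleblind protein that binds UGC-containing RNA motifs and is known for switching exons from fetal to adult patterns, was at 100.0, 106 and 111 CPM in the SEM::mock libraries and at 371, 335 and 341 CPM in the SEM::EGR3 libraries. Every SEM::EGR3 library lay more than 3 times above the mean of SEM::mock, 106 ± 5.61 CPM (SD, n = 3), and the groups did not overlap. The rise to 349 ± 19.2 CPM was 3.31-fold by the edgeR fit (log2 fold change 1.72, SE 0.06, edgeR adjusted p = 4.76e-18). Its paralogue MBNL2, which binds the same kind of motif and is best known in brain, went the other way, from 28.7, 31.4 and 30.7 CPM to 12.4, 10.5 and 12.8 CPM. All SEM::EGR3 libraries were below all SEM::mock libraries, with 2.52-fold less MBNL2 in SEM::EGR3 by the edgeR fit (log2 fold change -1.33, SE 0.11, edgeR adjusted p = 5.26e-11). MBNL1 lies at chr3:152243828-152465780 and MBNL2 at chr13:97221434-97394120, both on the plus strand (GRCh38, GENCODE 29). The MBNL2 part of the summed MBNL1 and MBNL2 level was 22.3%, 22.8% and 21.6% in SEM::mock and 3.23%, 3.03% and 3.60% in SEM::EGR3. This fall of 18.9 percentage points separated the libraries completely, and its two-sided exact permutation p of 0.1 (0.1 after Benjamini-Hochberg adjustment over 4 families) is the smallest that 3 against 3 libraries can give.

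The promoter windows of both muscleblind genes are shown because these genes changed the most. Those of HNRNPM, SF1 and U2AF1 are shown because, of the 52 splicing factor windows searched, only these had a match to a motif of the EGR family. The windows run from 250 bases before to 50 bases after the transcription start in RefSeq (GRCh38.p14), 5′ to 3′ on the strand of the gene, in lower case with a motif match in capitals. The RefSeq start of the MBNL2 window lies upstream of the GENCODE 29 span of the gene given above, and that of the MBNL1 window lies inside the span, so that these windows belong to other transcript starts than the first base of those spans. Which start was used in these cells was not measured.
MBNL1 (chr3:152268679-152268978, plus strand): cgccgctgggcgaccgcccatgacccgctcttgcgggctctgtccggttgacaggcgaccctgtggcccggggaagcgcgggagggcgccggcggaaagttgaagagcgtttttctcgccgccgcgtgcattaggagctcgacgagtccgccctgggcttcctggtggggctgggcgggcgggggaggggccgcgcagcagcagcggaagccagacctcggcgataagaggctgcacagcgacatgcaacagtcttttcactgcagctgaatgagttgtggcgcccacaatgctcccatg
MBNL2 (chr13:97141584-97141883, plus strand): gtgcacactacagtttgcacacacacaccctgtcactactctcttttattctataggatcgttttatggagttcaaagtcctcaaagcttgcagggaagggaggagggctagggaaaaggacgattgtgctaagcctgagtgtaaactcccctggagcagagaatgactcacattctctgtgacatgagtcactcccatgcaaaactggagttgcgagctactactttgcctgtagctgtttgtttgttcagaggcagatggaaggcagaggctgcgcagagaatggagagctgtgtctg
HNRNPM (chr19:8444725-8445024, plus strand): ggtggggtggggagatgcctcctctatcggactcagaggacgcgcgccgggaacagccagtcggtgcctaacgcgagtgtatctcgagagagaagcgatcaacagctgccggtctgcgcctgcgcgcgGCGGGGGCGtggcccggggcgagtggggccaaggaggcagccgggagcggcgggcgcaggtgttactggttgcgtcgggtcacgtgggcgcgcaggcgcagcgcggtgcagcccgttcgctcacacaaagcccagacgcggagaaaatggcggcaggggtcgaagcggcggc
SF1 (chr11:64778493-64778792, minus strand): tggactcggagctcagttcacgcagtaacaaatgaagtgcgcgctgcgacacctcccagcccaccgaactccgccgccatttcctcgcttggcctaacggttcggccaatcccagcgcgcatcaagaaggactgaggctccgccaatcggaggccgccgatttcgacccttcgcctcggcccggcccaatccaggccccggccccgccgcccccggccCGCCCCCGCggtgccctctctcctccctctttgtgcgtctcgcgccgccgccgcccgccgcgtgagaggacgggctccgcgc
U2AF1 (chr21:43107521-43107820, minus strand): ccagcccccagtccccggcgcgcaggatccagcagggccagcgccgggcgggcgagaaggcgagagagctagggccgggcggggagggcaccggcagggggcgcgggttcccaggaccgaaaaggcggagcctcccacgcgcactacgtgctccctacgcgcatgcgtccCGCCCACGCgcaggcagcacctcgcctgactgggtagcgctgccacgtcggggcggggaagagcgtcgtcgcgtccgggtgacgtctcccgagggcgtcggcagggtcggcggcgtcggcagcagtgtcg
The motifs searched were GCGTGGGCG and GCGGGGGCG on both strands, which differ at 1 base. The matches began 122 bases before the start in HNRNPM, on the gene's strand, and 32 and 80 bases before it in SF1 and U2AF1, on the other strand, where the capitals show the reverse complement. A window was found for 52 of the 60 genes, and 3 of the 52 (5.77%) held a match, against 2026 of 35116 promoter windows of all genes (5.77%). Of these 3 genes HNRNPM was called higher, and SF1 and U2AF1 were not called. No match was found in the MBNL1 and MBNL2 windows, which says only that these letters are not in them. No window was found for SRSF2, TRA2A, HNRNPA1, SNRPD1, SF3B3, RBM39, RBFOX2 and QKI, so that their promoters were not searched.

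Of the remaining regulators, RBFOX2, which binds UGCAUG and is known for exon choice in epithelial, muscle and nerve cells, was at 26.2, 30.5 and 26.6 CPM in SEM::mock and 41.9, 41.3 and 45.3 CPM in SEM::EGR3. The lowest SEM::EGR3 library was above the highest SEM::mock library (log2 fold change 0.62, SE 0.09, edgeR adjusted p = 7.49e-07). QKI, a STAR family protein that binds ACUAA-type motifs, rose from 139.7 ± 7.88 to 177 ± 9.80 CPM (SD, n = 3, log2 fold change 0.34, SE 0.06, edgeR adjusted p = 1.97e-05). The CELF proteins, which bind GU-rich RNA and oppose MBNL proteins on several exons, both fell. CELF2, which is known from lymphocytes, was at 235, 269 and 275 CPM in SEM::mock and 176, 157 and 173 CPM in SEM::EGR3. CELF1 went from 218, 233 and 227 CPM to 173, 162 and 169.9 CPM. Neither gene overlapped between the groups, with a log2 fold change of -0.62 for CELF2 (SE 0.06, edgeR adjusted p = 3.82e-09) and of -0.42 for CELF1 (SE 0.05, edgeR adjusted p = 2.58e-07). CELF2 made up 51.8%, 53.7% and 54.8% of the summed CELF1 and CELF2 level in SEM::mock and 50.3%, 49.2% and 50.5% in SEM::EGR3 (exact permutation p = 0.1, adjusted 0.1, the smallest possible). RBM39, a U2AF-related splicing factor, overlapped between the groups and had an interval from -0.13 to 0.10 for its log2 fold change. Leaving out any 1 library or changing the scaling, filter or tool changed no call among these 7 genes.

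**Figure D3:**
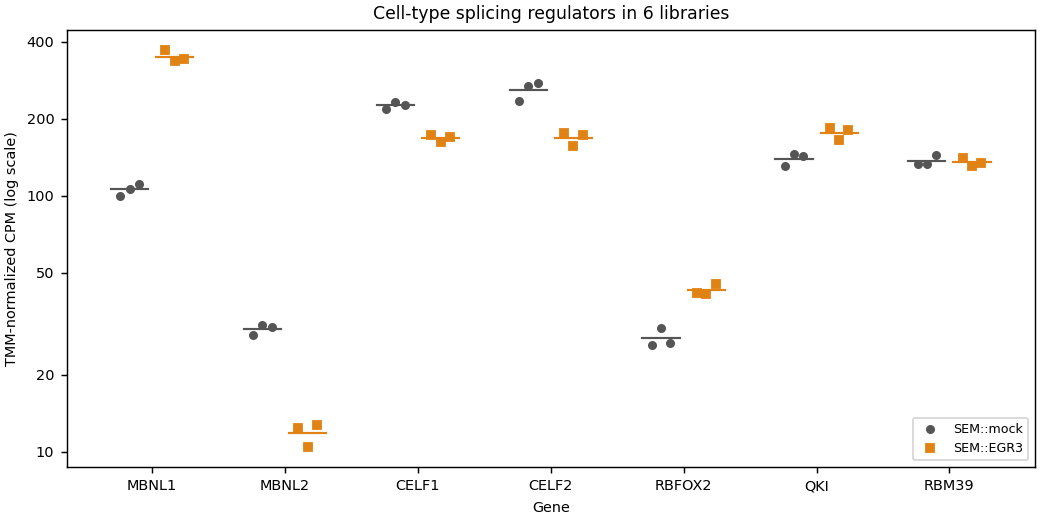
Level of the 7 regulators in each library (points, TMM-normalized CPM on a log axis) with the group means (lines). MBNL1 rises from 106 to 349 CPM and MBNL2 falls from 30.3 to 11.9 CPM, while RBM39 overlaps between SEM::mock and SEM::EGR3.

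Among the SR and Tra2 proteins, 2 of 12 were higher and 5 lower. SRSF6 (chr20:43457928-43464247, plus strand), which favors exon inclusion and is known from keratinocytes and skin tumors, was at 101, 108 and 104 CPM in SEM::mock and at 163, 159 and 156 CPM in SEM::EGR3. It was higher in all SEM::EGR3 libraries, 1.53-fold in the means (log2 fold change 0.61, SE 0.06, edgeR adjusted p = 7.81e-10). SRSF5 also rose, from 203, 205 and 202 CPM to 235, 229.8 and 247 CPM (log2 fold change 0.23, SE 0.05, edgeR adjusted p = 6.30e-04). The largest fall was that of SRSF9, an SR protein with a short RS domain, from 330.2, 329 and 308 CPM to 229.7, 240.3 and 244 CPM. The groups did not overlap (log2 fold change -0.44, SE 0.05, edgeR adjusted p = 8.24e-08). The last 1000 bases of SRSF9 overlap GATC on the opposite strand. The strand setting of the counting is not given in the sources used here, so that reads of such pairs cannot be told apart. The same holds for HNRNPA2B1, HNRNPH3, HNRNPU, SNRPF, SF3B2 and U2AF2, whose 3′ ends also meet a gene on the opposite strand within 1000 bases.

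The paired Tra2 genes, which bind GAA-rich exon enhancers, were both lower, TRA2B with the weaker support of the pair. TRA2A was at 157, 153 and 159 CPM in SEM::mock and 114, 119 and 130.5 CPM in SEM::EGR3, with every SEM::EGR3 library below every SEM::mock library (log2 fold change -0.37, SE 0.06, edgeR adjusted p = 6.41e-06). TRA2B was at 195, 206 and 199 CPM and 183, 179 and 187 CPM, also without overlap but closer (log2 fold change -0.13, SE 0.05, edgeR adjusted p = 0.0417), and its call was lost in 10 of 13 alternatives, among them leaving out SEM::mock replicate 2 (edgeR adjusted p = 0.103), SEM::EGR3 replicate 1 (0.0940), SEM::EGR3 replicate 2 (0.105) or SEM::EGR3 replicate 3 (0.0650). TRA2A made up 43.9% ± 1.10 of the summed Tra2 level in SEM::mock and 39.8% ± 1.38 in SEM::EGR3 (SD, n = 3, exact permutation p = 0.1, adjusted 0.1, the smallest possible).

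SRSF2, which is recurrently mutated in myeloid neoplasms, was at 435, 396 and 410.4 CPM in SEM::mock and 373, 358 and 380.4 CPM in SEM::EGR3. Its libraries did not overlap, the log2 fold change was -0.16 (SE 0.05, edgeR adjusted p = 0.0116), and the call was lost with scaling by library size only (-0.08, edgeR adjusted p = 0.202) and among genes with at least 10 counts in each library (-0.10, edgeR adjusted p = 0.0833). SRSF3, the smallest classical SR protein, was at -0.13 (SE 0.05, edgeR adjusted p = 0.0339) and lost its call in 7 of 13 alternatives, among them with library size only (adjusted p = 0.404) and without SEM::mock replicate 2 (0.0821), SEM::EGR3 replicate 1 (0.0715) or SEM::EGR3 replicate 2 (0.143), all by edgeR. SRSF1, the founding SR protein and a known oncogene, was at 283, 263 and 264 CPM in SEM::mock and 256, 242 and 261 CPM in SEM::EGR3. Although these libraries did not overlap, the difference did not pass the test (log2 fold change -0.09, 95% interval -0.20 to 0.01). SRSF4, SRSF7, SRSF10 and SRSF11 were not called either, with log2 fold changes from -0.11 to 0.05, and SRSF4 and SRSF7 were called lower without SEM::mock replicate 3 (-0.19 and -0.16, edgeR adjusted p = 0.0330 and 0.0292).

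The hnRNP and PTB proteins had 7 of 17 higher and 3 lower. HNRNPA0 (chr5:137745651-137754376, minus strand), an A/B-type hnRNP that binds AU-rich elements, rose most, from 271, 259 and 253 CPM in SEM::mock to 341, 357 and 365 CPM in SEM::EGR3. All SEM::EGR3 libraries were above all SEM::mock libraries (log2 fold change 0.44, SE 0.05, edgeR adjusted p = 6.97e-08). HNRNPA3, a close relative of HNRNPA1, went from 299, 294 and 302 to 369, 352 and 372 CPM, again without overlap (log2 fold change 0.29, SE 0.05, edgeR adjusted p = 2.15e-05). HNRNPA2B1, an abundant protein that also sorts RNA into exosomes, fell from 1089, 978 and 983 CPM to 788, 796 and 856 CPM. Its highest SEM::EGR3 library was below its lowest SEM::mock library (log2 fold change -0.32, SE 0.05, edgeR adjusted p = 1.08e-05). The 3′ end of HNRNPA2B1 overlaps NFE2L3 on the opposite strand, which had 184 counts in SEM::mock and 168 in SEM::EGR3 where HNRNPA2B1 had 17072 and 25997. HNRNPA1, the best known antagonist of SRSF1 in exon choice, was at 1483, 1493 and 1397 CPM in SEM::mock and 1492, 1493 and 1559 CPM in SEM::EGR3. These values overlapped, and the 95% interval of the log2 fold change ran from -0.04 to 0.15. With library size only HNRNPA1 was called higher (0.13, edgeR adjusted p = 0.0159). The 4 HNRNPA genes thus included 2 called higher, 1 called lower and 1 not called.

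HNRNPK, a poly(C)-binding protein whose loss is known in leukemia, was at 531, 483 and 509 CPM in SEM::mock and 571, 581 and 602 CPM in SEM::EGR3. It rose without overlap (log2 fold change 0.21, SE 0.05, edgeR adjusted p = 0.00105). HNRNPH3, HNRNPF and HNRNPM were higher by log2 fold changes of 0.22, 0.20 and 0.19 (edgeR adjusted p = 6.65e-04, 0.00928 and 0.00213). HNRNPF and HNRNPH3 bind G-rich tracts. The call of HNRNPF, whose libraries overlapped, was lost without SEM::mock replicate 1 (0.13, edgeR adjusted p = 0.101) or SEM::EGR3 replicate 1 (0.13, edgeR adjusted p = 0.1003). HNRNPR was lower by a log2 fold change of -0.22 (SE 0.05, edgeR adjusted p = 6.02e-04). HNRNPC, HNRNPD, HNRNPH1, HNRNPL and HNRNPU were not called, with log2 fold changes from -0.11 to 0.09. HNRNPL was called lower without SEM::mock replicate 1 (-0.15, edgeR adjusted p = 0.0243), and HNRNPH1 was called higher without SEM::EGR3 replicate 2 (0.13, edgeR adjusted p = 0.0295) and with library size only (0.16, edgeR adjusted p = 0.00868).

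The polypyrimidine tract binding proteins, which silence exons flanked by CU-rich tracts and replace each other by cell type, showed no common direction. PTBP1, the general family member, was at 449.6, 431 and 466 CPM in SEM::mock and 389, 407 and 383 CPM in SEM::EGR3. It was lower in every SEM::EGR3 library (log2 fold change -0.19, SE 0.05, edgeR adjusted p = 0.00228), though not called with library size only (-0.11, edgeR adjusted p = 0.0558). PTBP3, the form known from blood cells, was at 191, 196 and 194 CPM and 213, 209 and 219 CPM. It was higher without overlap (log2 fold change 0.14, SE 0.05, edgeR adjusted p = 0.0189), and its call was lost without SEM::mock replicate 1 (edgeR adjusted p = 0.0848), SEM::mock replicate 3 (0.0782) or SEM::EGR3 replicate 3 (0.0764). PTBP2, the neuronal form, was low at 10.2, 9.85 and 8.99 CPM and 9.76, 10.2 and 11.0 CPM. These overlapped, and its share of the 3 genes was 1.49% ± 0.124 in SEM::mock and 1.67% ± 0.107 in SEM::EGR3 (SD, n = 3, exact permutation p = 0.1, adjusted 0.1, the smallest possible).

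In the U1 snRNP and 5′ splice site group, 1 of 4 genes was higher and 1 lower. SNRPC (chr6:34757406-34773794, plus strand), the U1-specific C protein that stabilizes pairing with the 5′ splice site, was at 580.2, 515 and 519.7 CPM in SEM::mock and 345, 391 and 366 CPM in SEM::EGR3. Every SEM::EGR3 library was lower, 1.46-fold in the means (log2 fold change -0.55, SE 0.06, edgeR adjusted p = 7.22e-09). SNRPA, the U1-specific A protein, rose from 150.2, 146 and 141 CPM to 169.7, 169 and 171 CPM (log2 fold change 0.22, SE 0.05, edgeR adjusted p = 9.14e-04). SNRNP70, the U1 70K protein, and LUC7L, a U1-associated protein, were not called, at 0.06 and 0.03 on the log2 scale, and SNRNP70 was called higher with library size only (0.14, edgeR adjusted p = 0.0346). The U1-specific proteins therefore differed in direction.

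The Sm proteins form the ring around the snRNAs of U1, U2, U4 and U5, and 4 of 7 were lower and the other 3 were not called, apart from SNRPB, which was called higher with library size only (0.19, edgeR adjusted p = 0.00422) and among genes with at least 10 counts in each library (0.16, edgeR adjusted p = 0.0157). SNRPD2 was at 724, 737 and 755 CPM in SEM::mock and 531, 546 and 527 CPM in SEM::EGR3. SNRPE went from 514, 498 and 521 to 350.5, 365 and 357 CPM, and SNRPG (chr2:70281362-70293771, minus strand) from 221, 201 and 224 to 144, 149 and 148 CPM. For all 3 the SEM::EGR3 libraries lay well below the SEM::mock libraries. The log2 fold change was -0.47 for SNRPD2 (SE 0.05, edgeR adjusted p = 6.75e-09), -0.51 for SNRPE (SE 0.05, edgeR adjusted p = 1.86e-09) and -0.55 for SNRPG (SE 0.06, edgeR adjusted p = 5.10e-09). SNRPF, which joins SNRPE and SNRPG in a preassembled part of the ring, fell less (log2 fold change -0.20, SE 0.05, edgeR adjusted p = 0.00148). SNRPB, SNRPD1 and SNRPD3 were not called, at 0.11, -0.04 and 0.04. The 7 genes together took 0.277% to 0.286% of the counts in SEM::mock and 0.2458% to 0.2496% in SEM::EGR3.

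Several Sm genes have processed pseudogenes with nearly the same sequence, and how reads with several matches were counted is not given in the sources used here. Rows named as pseudogenes of SNRPG held 39.8% of the counts of gene and pseudogenes together, those of SNRPF 16.0% and those of SNRPE 12.0%. When these counts were added to the gene, an alternative chosen after seeing the data, the log2 fold change was -0.56 for SNRPG, -0.51 for SNRPE, -0.17 for SNRPF and -0.46 for SNRPD2 (edgeR adjusted p = 1.23e-08, 2.07e-09, 0.00597 and 7.23e-09). With such rows added for every member, the same 39 genes were called in the same direction.

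**Figure D4:**
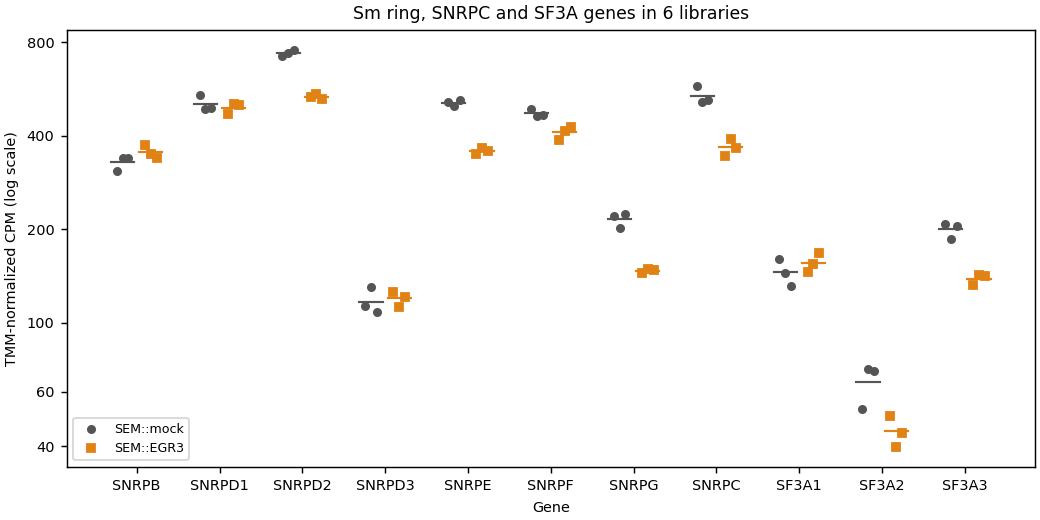
Level of the 7 Sm ring genes, SNRPC and the SF3A genes in each library (points, TMM-normalized CPM on a log axis) with the group means (lines). SNRPD2, SNRPE, SNRPG, SNRPC and SF3A3 are lower in all 3 SEM::EGR3 libraries, while SNRPB, SNRPD1, SNRPD3 and SF3A1 overlap.

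In the U2 snRNP and 3′ splice site group, 5 of 10 genes were higher and 2 lower. The lower genes were both of the SF3A complex, which joins the U2 snRNP to the branch point. SF3A3 (chr1:37956975-37990921, minus strand) was at 208, 187 and 204 CPM in SEM::mock and 133, 142 and 141 CPM in SEM::EGR3, and SF3A2 at 52.7, 70.9 and 70.0 and 50.1, 39.8 and 44.1 CPM. Both fell without overlap, though the SF3A2 libraries of SEM::mock were spread more widely, with a log2 fold change of -0.53 for SF3A3 (SE 0.06, edgeR adjusted p = 1.61e-08) and -0.51 for SF3A2 (SE 0.10, edgeR adjusted p = 4.88e-05). SF3A1, the scaffold of the complex, was not called at 0.09 (95% interval -0.04 to 0.23), and was called higher with library size only (0.17, edgeR adjusted p = 0.0308).

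Of the SF3B complex, which holds the branch point adenosine, SF3B1, SF3B2 and SF3B3 were higher. SF3B1, the splicing factor most often mutated in myelodysplastic syndromes and chronic lymphocytic leukemia, was at 165, 149.9 and 158 CPM in SEM::mock and 170.4, 178 and 179.6 CPM in SEM::EGR3. The libraries did not overlap, but the rise was small (log2 fold change 0.16, SE 0.06, edgeR adjusted p = 0.0149) and lost its call without SEM::mock replicate 2 (0.11, edgeR adjusted p = 0.131), SEM::mock replicate 3 (0.15, edgeR adjusted p = 0.0571) or SEM::EGR3 replicate 3 (0.15, edgeR adjusted p = 0.0562). SF3B2 and SF3B3 rose by log2 fold changes of 0.18 and 0.26 (SE 0.05 and 0.05, edgeR adjusted p = 0.00454 and 1.79e-04). U2AF2, the subunit that binds the polypyrimidine tract, rose from 159 ± 7.72 to 184 ± 5.23 CPM (SD, n = 3, log2 fold change 0.22, SE 0.06, edgeR adjusted p = 0.00116). SF1, the branch point binding protein, was not called at 0.07 (95% interval -0.04 to 0.17) and was called higher with library size only (0.14, edgeR adjusted p = 0.0219).

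ZRSR2 (chrX:15790472-15823260, plus strand), the factor that recognizes the 3′ splice site of minor introns and is mutated in myelodysplastic syndromes, had the largest rise of this group at low depth. Its counts were 33, 45 and 38 in SEM::mock and 171, 96 and 141 in SEM::EGR3, or 5.81, 7.51 and 7.43 against 11.0, 12.9 and 15.5 CPM. All SEM::EGR3 libraries were higher, 1.86-fold by the edgeR fit (log2 fold change 0.90, SE 0.17, edgeR adjusted p = 5.35e-05). U2AF1, the subunit that reads the AG of the 3′ splice site and is also mutated in myeloid neoplasms, had only 25, 22 and 25 counts in SEM::mock and 84, 44 and 46 in SEM::EGR3, or 4.40, 3.67 and 4.89 and 5.39, 5.90 and 5.06 CPM, and was not called (log2 fold change 0.34, 95% interval -0.06 to 0.73). Most of the counts lay in the row of its near-identical copy U2AF1L5, which held 1687, 1723 and 1396 counts in SEM::mock and 4767, 2270 and 2864 in SEM::EGR3. The level of U2AF1 alone is therefore uncertain, and the sum of the rows was at a log2 fold change of 0.11 (SE 0.05, edgeR adjusted p = 0.0562), which did not pass the threshold.

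All 3 genes of the tri-snRNP and the Prp19 complex were called, where 36.5% of all tested genes were higher and 32% lower. PRPF8, the large protein at the heart of the catalytic center, was at 188, 188 and 189 CPM in SEM::mock and 218, 216 and 208 CPM in SEM::EGR3, a small rise without overlap (log2 fold change 0.19, SE 0.05, edgeR adjusted p = 0.00338). PRPF19 (chr11:60890730-60906588, minus strand), the ubiquitin ligase at the core of the Prp19 complex, fell from 248, 219 and 223 CPM to 162, 184 and 186 CPM (log2 fold change -0.38, SE 0.06, edgeR adjusted p = 9.76e-06). PRPF31, which holds the tri-snRNP together and is known from retinitis pigmentosa, was at 98.1, 117 and 112 CPM and 95.4, 94.8 and 90.0 CPM. The groups were close but apart (log2 fold change -0.22, SE 0.07, edgeR adjusted p = 0.00478), and PRPF31 was not called with library size only (-0.14, edgeR adjusted p = 0.0568).

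Coding length was looked at after the values were seen, because the Sm proteins are small. Of the 8 splicing factor genes with at most 600 coding bases (GENCODE 29), 6 were lower by edgeR, with a median log2 fold change of -0.33 over the 8. These were SRSF3, SNRPC, SNRPD2, SNRPE, SNRPF and SNRPG, whose falls are given above. Of the 5 genes with more than 2400 coding bases, 4 were higher, with a median of 0.18. Most members lay between these lengths and showed no such lean. Of the 23 with more than 600 and up to 1200 coding bases, 8 were higher and 6 lower (median 0.05). Of the 24 with more than 1200 and up to 2400, 7 were higher and 8 lower (median 0.04). Among all tested protein-coding genes, 41.0% of those with at most 600 coding bases were lower and 33.1% higher, and of those with more than 2400, 29.03% were lower and 41.9% higher. Of the further splicing genes listed next, 9 of 16 with at most 600 coding bases were lower and 2 higher, while of 25 with more than 2400, 11 were higher and 7 lower. As a description across genes, which share libraries and are not independent replicates, the Spearman correlation of coding length with log2 fold change was 0.20 over the 60 splicing factors. It was 0.25 over the 103 further splicing genes and 0.08 over 12189 protein-coding genes.

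A list of 104 further splicing genes was counted beside the 60. Of the 103 that passed the filter, which left out SRSF12, 33 were higher, 33 were lower and 37 were not called, where 36.5% of all tested genes were higher and 32% lower. Under library size only, 40 were higher and 22 lower, and the shares of all tested genes under that scaling were not counted. None of them was called by edgeR with a log2 fold change of 1 or more in size, against 25.2% of all tested genes, and the median log2 fold change was 0.00. An unadjusted edgeR p under 0.05 was found for 68 of the 103, and the share of all tested genes under that rule was not counted. The kinases that phosphorylate SR proteins had 2 of 8 higher and 1 lower, with DYRK1A at 0.52 (edgeR adjusted p = 1.21e-06) and SRPK1 at -0.38 (edgeR adjusted p = 5.86e-06). Further SR-related proteins had 2 of 8 tested higher and 2 lower, with SRSF8 at -0.42 and SRRM1 at -0.37. Further RNA-binding regulators had 8 of 20 higher and 7 lower. HNRNPLL, known for the CD45 exon switch of lymphocytes, fell from 49.1 ± 1.79 to 29.3 ± 1.72 CPM (SD, n = 3, log2 fold change -0.75, SE 0.08, edgeR adjusted p = 9.71e-09), and MBNL3, the third muscleblind gene, from 30.7 ± 3.86 to 20.7 ± 2.38 CPM (SD, n = 3, log2 fold change -0.54, SE 0.11, edgeR adjusted p = 9.33e-05). Of the 3 muscleblind genes, MBNL1 rose while MBNL2 and MBNL3 fell.

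Further core proteins moved in both directions. Of 17 further U1 and U2 proteins, 5 were higher and 8 lower, with SF3B5, a small SF3B subunit, at -0.71 (SE 0.05, edgeR adjusted p = 1.98e-11) and SNRPB2, the U2-specific B″ protein, at 0.62 (SE 0.05, edgeR adjusted p = 3.12e-10). The SF3B complex thus held members of either direction. Of 19 U4/U6.U5 and LSm proteins, 5 were higher and 9 lower, with LSM5, part of the ring on U6, at -0.64 and USP39, a tri-snRNP recruitment factor, at -0.55 (edgeR adjusted p = 1.17e-09 and 2.23e-08). Of 24 Prp19 complex and catalytic step proteins, 9 were higher and 4 lower, with PPIL1 at -0.64 and CRNKL1 at 0.63 (edgeR adjusted p = 4.37e-08 and 2.16e-05). Of 7 minor spliceosome proteins, 2 were higher and 2 lower, and the largest called changes were those of PDCD7 at 0.38 and ZMAT5 at 0.38 (edgeR adjusted p = 7.04e-05 and 0.00398).

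The B-lineage and KMT2A target markers given above differed between the lines together with every called gene, and their part in the splicing factor changes was not tested.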

How the data were processed

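RNA of SEM::mock and SEM::EGR3 (3 biological replicates each) was measured by MACE-Seq. The deposited counts are whole numbers, made by the authors without normalization. Per the submitters' processing notes, bcl2fastq, Bowtie2, HTSeq and the build GRCh38 were used; versions, strand setting and treatment of reads with several matches are not given in the sources used here. The deposited scaled values and the authors' own comparison (fold changes, p-values) were not used. The column headings spell EGR3 as ERG3.

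Groups were compared with edgeR 4.0.16 under R 4.3.3 (filterByExpr, TMM, glmQLFit, glmQLFTest), with Benjamini-Hochberg adjustment over 15465 tested genes and a threshold of 0.05. The procedure was first run on simulated counts. That simulation changed far fewer genes than were called here, equally in both directions, so it does not test the scaling under changes this wide. CPM are counts scaled to the library total times its TMM factor. Standard errors are the absolute log2 fold change over the square root of F. P-values measure the spread between libraries labelled as biological replicates. The limit of 3 counts covers counting error only. The members and gene lists were chosen with earlier results of these data known.

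Values per library are given for the 3 called members of each role with the largest absolute log2 fold change, for the paralogue families PTBP, MBNL, CELF and Tra2, for SF3B1, SRSF2, U2AF1 and ZRSR2, and for SRSF1, HNRNPA1, HNRNPK and PRPF8. Of the further splicing genes, the 2 largest called changes of each role are named. Positions and coding lengths are from GENCODE 29, which held 97% of the gene identifiers, and promoter windows from RefSeq (GRCh38.p14).

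Alternatives were DESeq2 1.42.0, the replicate number as a block, scaling by library size only or by upper quartile, a filter of 10 counts in each library or none, leaving out each library, a minimum absolute log2 fold change of 1 and, added after seeing the data, counts of near-identical copies added to their gene.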

Additional observations from a re-analysis of the deposited data

How the results depend on the processing

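Across 13 alternative fits of the 60 splicing factor genes, 737 of 780 values kept their direction or their lack of a call, 31 lost a call, 12 gained one and 0 called values reversed. The counts of higher and lower genes stayed within 1.5 times of the main counts in each of these fits. Leaving out 1 library gave 17 to 20 higher and 18 to 22 lower splicing factors, 25 to 33 higher and 28 to 35 lower further splicing genes, and a median log2 fold change of the splicing factors from -0.004 to 0.05. DESeq2 called 19 higher and 19 lower, all 38 shared with edgeR, and lost TRA2B. With a minimum absolute log2 fold change of 1, 1 splicing factor was higher and 1 lower, and 0 further splicing genes were higher and 0 lower, by construction of that rule. With library size only, 34 calls were shared, SRSF2, SRSF3, TRA2B, PTBP1 and PRPF31 lost their call, and HNRNPA1, HNRNPH1, SNRNP70, SNRPB, SF1 and SF3A1 gained one. A filter of 10 counts in each library lost SRSF2, SRSF3 and TRA2B and gained HNRNPH1 and SNRPB, and no filter lost TRA2B and PTBP3. Without a filter the median log2 fold change of all genes was 0.22, and the cause was not tested.

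With the replicate number as a block, 18 splicing factors were higher and 18 lower, as were 29 and 28 of the further splicing genes. The labels do not say that a number marks a shared culture, and deviations of libraries with the same number correlated at -0.12, -0.08 and -0.04. The block lost SRSF3, TRA2B and PTBP3. No library of either line correlated best with its own number.

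Low counts limit PTBP2, ZRSR2 and U2AF1 the most. For U2AF1 the row of the copy U2AF1L5 held 98.4% of the counts of both rows. Leaving out 1 library in turn moved the MBNL2 share difference only between -19.2 and -18.7 percentage points.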
